A study of Mus musculus with 9 samples.

Results

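The genes that write, maintain and remove DNA methylation were followed in mouse B cells at rest and after activation, with and without B lineage deletion of the monocarboxylate transporter gene *Mct1* (*Slc16a1*). Members were taken by symbol, *Dnmt1*, *Dnmt3a*, *Dnmt3b*, *Tet1*, *Tet2*, *Tet3*, *Uhrf1*, *Tdg* and *Mbd4*, and all 9 were found among the 17596 genes of the expression table. RNA sequencing was done on primary splenic B cells of Mb1Cre mice, the controls, and of *Mct1* f/f Mb1Cre mice, whose floxed allele was made on the C57BL/6J background. Both genotypes carry the Mb1Cre allele, which makes Cre recombinase under the *Mb1* (*Cd79a*) promoter and therefore in the B lineage, and the floxed *Mct1* allele has its recombination sites around a stretch from exon 1 to intron 3. On day 0 the cells were untreated, and on day 3 they had been cultured with LPS at 10 μg/mL and IL-4 at 50 ng/mL, a mixture that drives division and switching to IgG1 and IgE. The methods give mice of 6 to 8 weeks for the experiments. The groups held 2 Mb1Cre and 2 *Mct1* f/f Mb1Cre libraries on day 0, and 2 Mb1Cre and 3 *Mct1* f/f Mb1Cre libraries on day 3. The labels do not say which animals, cultures or pools gave the libraries, so p-values measure the spread between these libraries, which may be technical.

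DNA methylation in mammals sits mostly on cytosines of CG dinucleotides. After replication, UHRF1 recognises hemimethylated CG sites and brings in DNMT1, which copies the mark to the new strand, while DNMT3A and DNMT3B place marks on sites that had none. TET1, TET2 and TET3 oxidise 5-methylcytosine with oxygen, iron and 2-oxoglutarate, and the glycosylase TDG cuts out the most oxidised forms and thymine mispaired with guanine. MBD4, a second glycosylase with a methyl-CpG binding domain, also removes thymine and uracil opposite guanine in CG sites. In germinal centre B cells DNMT1 is abundant, and TET2 and TET3 are known from knockout mice to be needed for normal B cell development and class switching.

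Levels are FPKM, fragments per kilobase of gene and per 1000000 mapped fragments, so they can be set side by side between genes. The read depth is unknown, and the precision of each value rests on the 2 or 3 libraries of a group. *Slc16a1*, the gene of MCT1, stood at 22.6 and 23.0 FPKM in the Mb1Cre libraries on day 3 and at 10.8, 9.81 and 9.50 FPKM in the *Mct1* f/f Mb1Cre libraries. On day 0 it stood at 4.33 and 3.80 FPKM in Mb1Cre and at 3.71 and 4.06 FPKM in the libraries labelled *Mct1* f/f Mb1Cre, so its level checks the genotype labels on day 3 (difference −1.11, limma adjusted p = 9.07e-06) and not on day 0 (−0.05, limma adjusted p = 0.844). Reads over exons outside the floxed stretch count towards this level. All 6 B cell markers were found, and their summed level was 4183 to 4612 FPKM on day 0 and 2182 to 2271 FPKM on day 3. Myeloid markers summed to 1015 to 1823 FPKM on day 0 and to 15.0 to 25.5 FPKM on day 3, those of T cells to 26.7 to 30.1 FPKM and then 0.770 to 1.37 FPKM. The range over libraries was 36.02 to 46.2 FPKM on day 0 against 12.5 to 14.7 FPKM on day 3 for NK cell markers, 131 to 240.2 against 6.85 to 10.2 FPKM for erythroid and platelet markers, and 134 to 234 against 321 to 393 FPKM for plasma cell markers. The plasma cell markers did not move together. In Mb1Cre cells mean *Xbp1* went from 62.9 to 254 FPKM, *Prdm1* from 2.0 to 8.4 FPKM and *Sdc1* from 7.27 to 2.42 FPKM. *Jchain* went from 70.1 to 121 FPKM in Mb1Cre and from 139 to 87.4 FPKM in *Mct1* f/f Mb1Cre cells. Y-linked *Ddx3y* lay between 0.02 and 0.24 FPKM in 3 of 4 day 0 libraries and at 31.1 FPKM in *Mct1* f/f Mb1Cre day 0 replicate 1. It lay between 14.7 and 16.9 FPKM in all libraries of day 3, so that day and sex of the mice cannot be told apart in Mb1Cre cells. In *Mct1* f/f Mb1Cre cells the day 3 libraries, at 15.4 to 16.9 FPKM, lay between the day 0 libraries, at 0.20 and 31.1 FPKM. Whether the sexes match between the days is therefore not known there either.

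The start regions of the members are shown because CG methylation acts there and because the genes fell into a rising and a falling group on activation. RefSeq windows of 300 bases, 250 before and 50 after a transcription start on GRCm38.p6, were found for all 9 members, 14 in all. In the window richest in CG of each member, the number of CG dinucleotides ran from 17 in *Tet1* to 57 in *Tet2* with a median of 30. The median over all 32851 windows was 7, but without such a choice of window, so the 2 medians are not alike. The members' other windows held 2 and 12 CG in *Dnmt1*, 12 in *Uhrf1*, and 46 and 18 in *Dnmt3a*. The letters TTTNGCGC, a form of the binding site of the S phase regulator E2F, were searched on both strands. They stood in the windows of 2 of 9 members, *Dnmt1* and *Uhrf1*, beside 1.38% of all windows and 2.88% of the windows with at least 17 CG. Other starts of *Dnmt1* and *Uhrf1* in the table held no match. The related letters TTTNCCGC stood in 0 of 9 members, beside 2.22% of all windows and 4.58% of those with at least 17 CG. CCAAT stood in 5 of 9 members, beside 37.4% and 34.1%. TTTNGCGC and TTTNCCGC differ at a fixed letter, so no match is counted for both, and an overlap of either with CCAAT was not looked for.

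The stretches below run 5′ to 3′ on the strand of the gene, with TTTNGCGC on either strand in capitals. For *Uhrf1*, *Tdg* and *Tet3* they hold the 250 bases before the start, and for *Dnmt1* the 30 bases around each of its 2 matches. The *Uhrf1* stretch is chr17:56304063-56304312 on the plus strand, with its match at chr17:56304128-56304135 in an intron of the longer transcripts. Both *Dnmt1* stretches, chr9:20952824-20952853 and chr9:20952574-20952603 on the minus strand, have their match in exons with no coding sequence there. *Tdg*, chr10:82629588-82629837 on the plus strand, rose on activation, and *Tet3*, chr6:83441679-83441928 on the minus strand, fell, and neither stretch holds these letters.
Uhrf1: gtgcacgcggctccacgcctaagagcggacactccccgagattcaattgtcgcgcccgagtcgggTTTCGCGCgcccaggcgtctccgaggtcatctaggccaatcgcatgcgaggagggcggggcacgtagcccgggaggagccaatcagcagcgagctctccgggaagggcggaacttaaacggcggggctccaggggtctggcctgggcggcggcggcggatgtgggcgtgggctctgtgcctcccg
Dnmt1, first match: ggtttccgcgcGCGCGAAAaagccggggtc
Dnmt1, second match: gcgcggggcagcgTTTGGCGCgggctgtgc
Tdg: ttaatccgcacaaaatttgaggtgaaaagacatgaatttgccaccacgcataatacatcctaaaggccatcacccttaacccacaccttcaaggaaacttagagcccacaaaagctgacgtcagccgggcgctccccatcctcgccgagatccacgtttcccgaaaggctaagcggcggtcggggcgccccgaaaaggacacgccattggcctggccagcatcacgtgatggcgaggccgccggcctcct
Tet3: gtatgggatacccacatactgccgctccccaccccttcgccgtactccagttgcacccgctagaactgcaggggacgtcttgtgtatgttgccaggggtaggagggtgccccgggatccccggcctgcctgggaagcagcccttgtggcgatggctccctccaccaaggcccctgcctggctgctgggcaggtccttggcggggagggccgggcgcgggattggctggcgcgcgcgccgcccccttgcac

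On activation the maintenance genes, *Dnmt3a* and *Tdg* rose and *Tet3* and *Mbd4* fell, in both genotypes. A gene was called at an adjusted p under 0.05 in limma and a difference of more than 0.5 in log2(FPKM + 1). In Mb1Cre cells, 4 of the 8 members tested were called higher on day 3 and 2 lower, beside 24.8% and 33% of the 10823 genes tested. The count in *Mct1* f/f Mb1Cre cells was again 4 higher and 2 lower, beside 23.4% and 33.2%. The median difference of the 8 members was 0.28 in Mb1Cre and 0.50 in *Mct1* f/f Mb1Cre cells, where the medians of all genes were −0.12 and −0.14. The days did not overlap in 7 of these 8 members in Mb1Cre and in all 8 in *Mct1* f/f Mb1Cre cells. This stands beside 91.9% and 89.8% of all genes tested, so a gap between the days was common and does not set the members apart. *Tet1* was the 1 member with a mean under 1 FPKM and was left out of the test.

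*Uhrf1*, which finds hemimethylated sites, rose most among the members. It stood at 13.2 and 13.1 FPKM in the Mb1Cre libraries of day 0 and at 96.1 and 97.4 FPKM in those of day 3. The *Mct1* f/f Mb1Cre libraries of day 0 had 14.5 and 15.9 FPKM and those of day 3 106.8, 103.2 and 106.7 FPKM. The lowest day 3 library was far above the highest of day 0 in both genotypes. The ratio of the means was 7.36 in Mb1Cre and 6.95 in *Mct1* f/f Mb1Cre cells. In limma the difference was 2.79 (SE 0.0487, adjusted p = 3.55e-12) and 2.72 (SE 0.0445, adjusted p = 2.33e-12) on the log2(FPKM + 1) scale, and 1.30% and 0.887% of all genes tested had a larger value.

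*Dnmt1*, the maintenance methyltransferase, rose with it but by less. The Mb1Cre libraries had 30.5 and 28.8 FPKM at rest and 70.4 and 73.3 FPKM after activation. The *Mct1* f/f Mb1Cre libraries had 28.7 and 29.8 FPKM at rest and 75.6, 76.6 and 78.3 FPKM after activation. Days did not overlap in either genotype, and the means differed 2.42-fold and 2.62-fold. The log2 difference was 1.25 in Mb1Cre (SE 0.0469, limma adjusted p = 6.19e-10) and 1.36 in *Mct1* f/f Mb1Cre cells (SE 0.0428, limma adjusted p = 1.39e-10). The level of *Uhrf1* was 0.444 ± 0.0153 (SD, n = 2) of that of *Dnmt1* in Mb1Cre cells on day 0 and 1.35 ± 0.0259 (SD, n = 2) on day 3, so the order of the pair turned round.

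**Figure D1:**
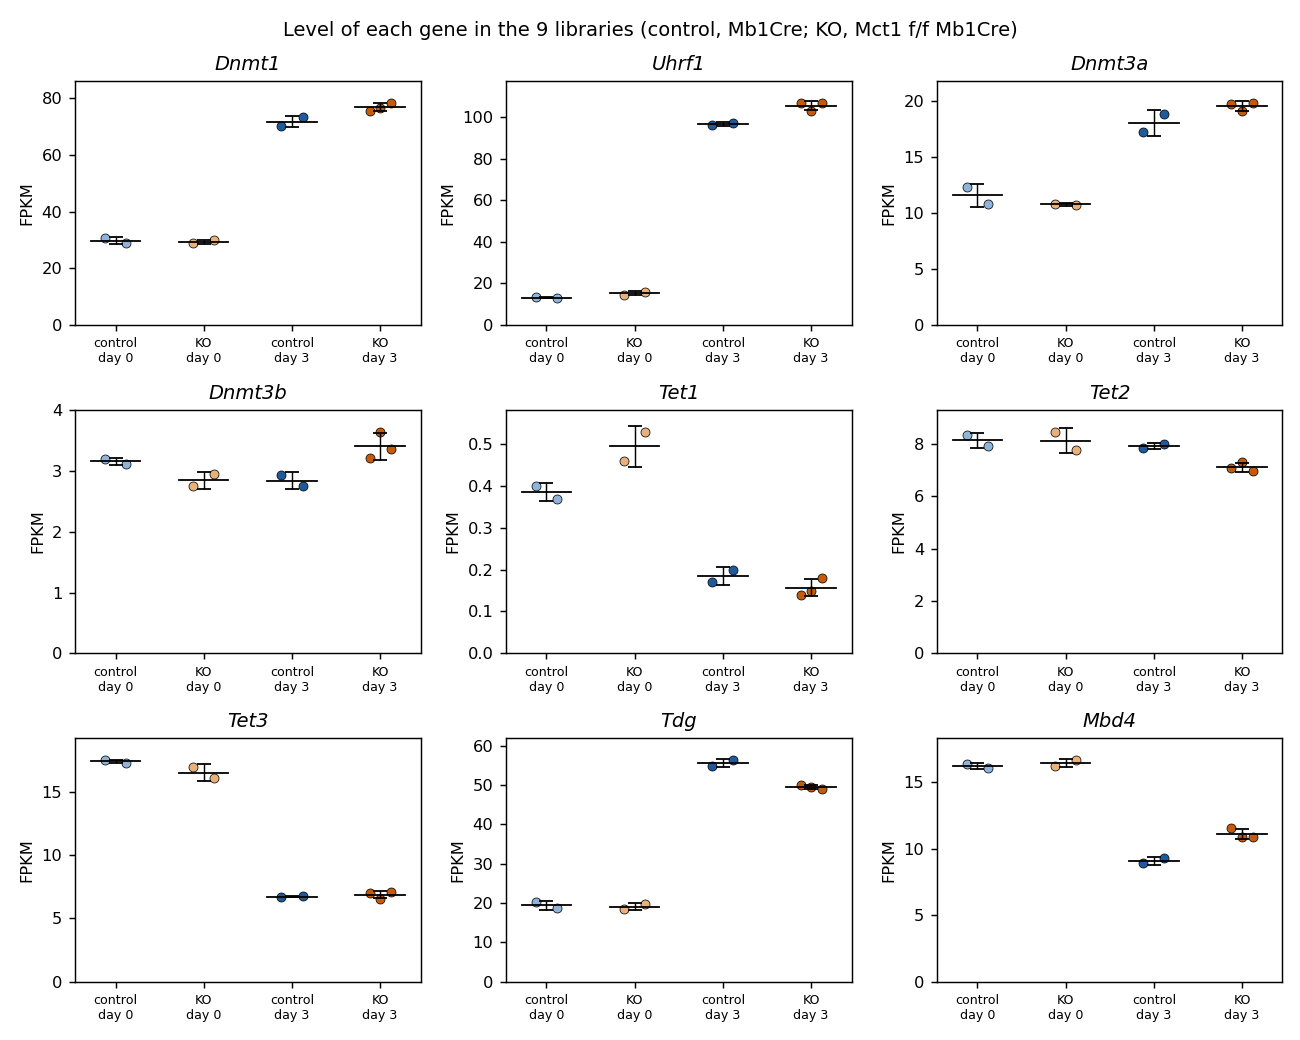
FPKM of each of the 9 genes (y axis, from 0) in the 9 libraries by group (x axis; control, Mb1Cre; KO, *Mct1* f/f Mb1Cre), with a point per library, a bar at the group mean and whiskers of 1 SD. *Uhrf1*, *Dnmt1*, *Dnmt3a* and *Tdg* are higher in every library of day 3 than of day 0, *Tet1*, *Tet3* and *Mbd4* are lower in every one, and *Dnmt3b* and *Tet2* stay near their day 0 levels. Of all genes tested, 91.9% in Mb1Cre and 89.8% in *Mct1* f/f Mb1Cre cells do not overlap between the days.

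Among the genes of de novo methylation, *Dnmt3a* rose and *Dnmt3b* was low throughout. *Dnmt3a* stood at 12.3 and 10.8 FPKM in Mb1Cre cells before activation and at 17.2 and 18.9 FPKM after it. Libraries of *Mct1* f/f Mb1Cre stood at 10.8 and 10.7 FPKM and then at 19.8, 19.1 and 19.8 FPKM. Every day 3 library was above every day 0 library. The log2 difference was 0.60 in Mb1Cre (SE 0.0668, limma adjusted p = 6.12e-06) and 0.81 in *Mct1* f/f Mb1Cre cells (SE 0.0610, limma adjusted p = 2.07e-07). The call in Mb1Cre cells is close to the limit of 0.5 and was lost when all libraries were scaled to the same total, with 0.41 (limma adjusted p = 3.13e-04), and with a pseudocount of 5, with 0.48 (limma adjusted p = 7.38e-06).

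*Dnmt3b* had 3.20 and 3.12 FPKM in Mb1Cre cells before activation and 2.94 and 2.75 FPKM after it, lower in both. The *Mct1* f/f Mb1Cre libraries had 2.75 and 2.95 FPKM and then 3.21, 3.65 and 3.37 FPKM, higher in all 3. The differences were small, −0.11 (95% interval −0.29 to 0.06, limma adjusted p = 0.204) and 0.20 (0.03 to 0.36, limma adjusted p = 0.0274), and neither was called. Both depended on the scaling. In *Mct1* f/f Mb1Cre cells *Dnmt3b* was called higher under quantile normalization, with 0.63 (limma adjusted p = 1.01e-05), and had 0.36 under median-of-ratios scaling. In Mb1Cre cells the direction turned under median-of-ratios scaling, to 0.05, and under quantile normalization, to 0.27.

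The Tet genes, whose products start demethylation, parted from each other. *Tet3* had 17.5 and 17.3 FPKM in Mb1Cre cells before activation and 6.71 and 6.74 FPKM after it. Cells of *Mct1* f/f Mb1Cre mice had 17.0 and 16.0 FPKM before and 6.99, 6.55 and 7.08 FPKM after it. The fall was seen in every library, to 0.387 and 0.417 of the day 0 mean. In limma *Tet3* fell by 1.25 on the log2 scale in Mb1Cre (SE 0.0587, adjusted p = 3.69e-09) and by 1.15 in *Mct1* f/f Mb1Cre cells (SE 0.0536, adjusted p = 3.16e-09).

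*Tet2* had 8.35 and 7.93 FPKM in Mb1Cre cells before activation and 7.84 and 8.01 FPKM after it, so the days overlapped. Values in *Mct1* f/f Mb1Cre cells were 8.47 and 7.78 FPKM on day 0, then 7.07, 7.30 and 6.95 FPKM on day 3. The differences were −0.03 (95% interval −0.17 to 0.11, limma adjusted p = 0.626) and −0.17 (−0.30 to −0.04, limma adjusted p = 0.0176), both under the limit of 0.5. Their sign depended on the scaling and was positive under median-of-ratios scaling and quantile normalization in both genotypes.

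*Tet1* was near the floor of the table. Its libraries had 0.40 and 0.37 FPKM in Mb1Cre cells before activation and 0.17 and 0.20 FPKM after it, and in *Mct1* f/f Mb1Cre cells 0.46 and 0.53 FPKM and then 0.14, 0.15 and 0.18 FPKM. All values of day 3 were below all of day 0. With no filter on low values, limma gave −0.23 (SE 0.0349, adjusted p = 7.64e-04) in Mb1Cre and −0.37 (SE 0.0318, adjusted p = 2.54e-05) in *Mct1* f/f Mb1Cre cells over 17512 genes. Adding 1 to values this low holds the log2 difference down, and neither reached the limit for a call.

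The 2 glycosylases moved apart. *Tdg*, which removes the oxidised bases the TET enzymes make, had 20.2 and 18.7 FPKM in Mb1Cre cells before activation and 55.0 and 56.4 FPKM after it. The other genotype had 18.5 and 19.8 FPKM on day 0, then 50.1, 49.5 and 48.9 FPKM on day 3. The days lay far apart in both genotypes. *Tdg* rose by 1.47 in Mb1Cre (SE 0.0518, limma adjusted p = 3.67e-10) and by 1.33 in *Mct1* f/f Mb1Cre cells (SE 0.0473, limma adjusted p = 3.62e-10) on the log2 scale.

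*Mbd4* had 16.4 and 16.0 FPKM in Mb1Cre cells before activation and 8.88 and 9.30 FPKM after it. Its *Mct1* f/f Mb1Cre libraries had 16.2 and 16.6 FPKM on day 0, then 11.5, 10.9 and 10.9 FPKM on day 3. No day 3 library reached a day 0 library. *Mbd4* fell by 0.77 in Mb1Cre (SE 0.0548, limma adjusted p = 1.31e-07) and by 0.53 in *Mct1* f/f Mb1Cre cells (SE 0.0501, limma adjusted p = 1.47e-06) on the log2 scale. The latter was not called under median-of-ratios scaling, with −0.32, under quantile normalization, with −0.37, or with a pseudocount of 5, with −0.41.

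**Figure D2:**
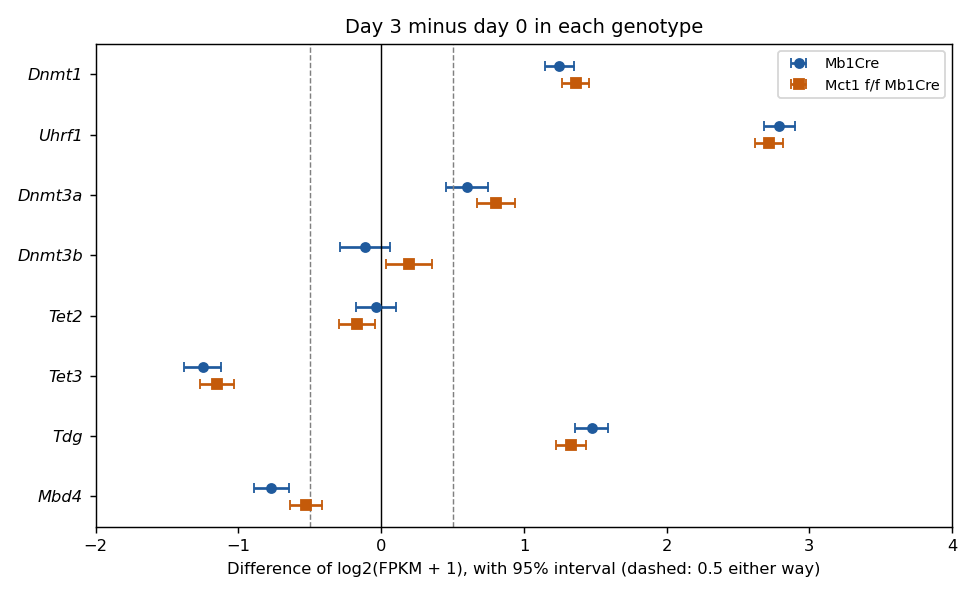
Day 3 minus day 0 for the 8 members tested, as a difference of log2(FPKM + 1) (x axis) with its 95% interval from limma, in Mb1Cre (circles) and *Mct1* f/f Mb1Cre cells (squares). *Uhrf1*, *Tdg*, *Dnmt1* and *Dnmt3a* lie right of 0 and *Tet3* and *Mbd4* left of it in both genotypes, while *Dnmt3b* and *Tet2* lie between the dashed limits of 0.5.

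Several measures of the libraries moved with the day. The FPKM of a library summed to 477079 to 491459 on day 0 and to 547355 to 563586 on day 3, and the median of all genes moved from −0.12 in Mb1Cre cells to −0.31 when totals were made equal and to 0.06 under median-of-ratios scaling. The shares of higher calls among all calls in Mb1Cre cells were 42.9% as deposited, 32.0% with equal totals, 55.4% under median-of-ratios scaling and 50.8% under quantile normalization. For *Mct1* f/f Mb1Cre cells they were 41.4%, 31.7%, 54.9% and 51.4%. *Uhrf1*, *Dnmt1*, *Tdg* and *Tet3* kept their call and direction under each of these scalings in both genotypes. The fall of the myeloid and T cell markers ran beside all of these changes, and its part in them was not tested. Fewer cells of a type and less RNA per cell cannot be told apart in bulk samples. Another fit kept replicate 1, the library with *Ddx3y*, as the lone day 0 library of *Mct1* f/f Mb1Cre, whose spread is then taken from the other groups. The differences were 2.78 for *Uhrf1*, 1.39 for *Dnmt1*, 1.38 for *Tdg*, 0.80 for *Dnmt3a*, −1.19 for *Tet3* and −0.51 for *Mbd4*. With *Ddx3y* at 31.1 FPKM in that library and at 15.4 to 16.9 FPKM on day 3, a match of sex is not shown in this fit.

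The order of the genes by level changed between the days. On day 0 in Mb1Cre cells it ran, from high to low, *Dnmt1*, *Tdg*, *Tet3*, *Mbd4*, *Uhrf1*, *Dnmt3a*, *Tet2*, *Dnmt3b* and *Tet1*, and no neighbours overlapped. In *Mct1* f/f Mb1Cre cells the order was the same, but *Tet3* and *Mbd4* overlapped. On day 3 it ran *Uhrf1*, *Dnmt1*, *Tdg*, *Dnmt3a*, *Mbd4*, *Tet2*, *Tet3*, *Dnmt3b* and *Tet1* in both genotypes, with an overlap of *Tet2* and *Tet3* in *Mct1* f/f Mb1Cre cells. *Uhrf1* thus went from the fifth place to the first and *Tet3* from the third to the seventh.

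Within each family the make-up shifted, described here as shares of the summed FPKM with no test. *Dnmt1* made up 66.8% ± 0.731 (SD, n = 2) of the 3 methyltransferases in Mb1Cre cells on day 0 and 77.5% ± 0.362 (SD, n = 2) on day 3, while their sum went from 44.4 to 92.7 FPKM. Its share in *Mct1* f/f Mb1Cre cells was 68.3% and then 77.0%, with sums of 42.9 and 99.8 FPKM. The Tet sum went the other way, from 25.9 to 14.8 FPKM in Mb1Cre and from 25.1 to 14.1 FPKM in *Mct1* f/f Mb1Cre cells. *Tet3* was the larger part of it on day 0, with 67.1% and 65.7%, and *Tet2* on day 3, with 53.4% and 50.3%.

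*Tdg* and *Mbd4* were close on day 0 and far apart on day 3. The ratio of *Tdg* to *Mbd4* was 1.20 ± 0.0482 (SD, n = 2) in Mb1Cre and 1.16 ± 0.0345 (SD, n = 2) in *Mct1* f/f Mb1Cre cells on day 0. On day 3 it was 6.13 ± 0.0904 (SD, n = 2) and 4.47 ± 0.106 (SD, n = 3). The libraries of *Mct1* f/f Mb1Cre lay between 4.35 and 4.55 and those of Mb1Cre between 6.06 and 6.19, with no overlap.

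**Figure D3:**
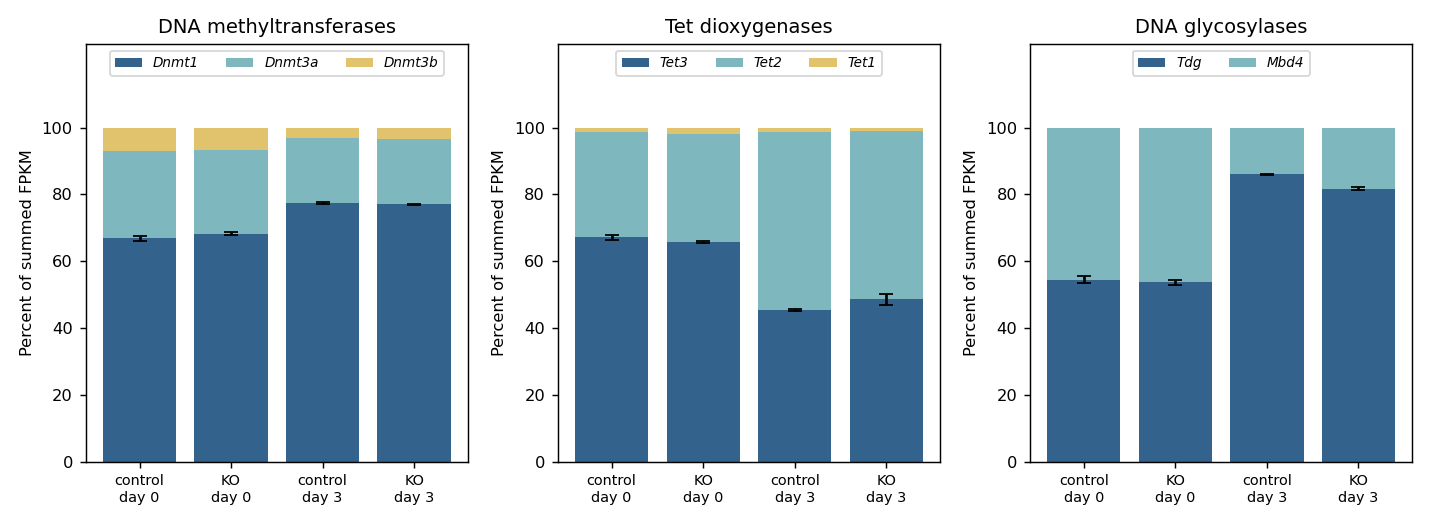
Share of each gene in the summed FPKM of its family (y axis, percent) by group (x axis; control, Mb1Cre; KO, *Mct1* f/f Mb1Cre), as the mean over libraries, with 1 SD on the lowest segment. *Dnmt1* goes from 66.8% to 77.5% of the methyltransferases in control cells, *Tet3* from 67.1% to 45.3% of the Tet genes, and *Tdg* from 54.5% to 86.0% of the glycosylases.

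Between the genotypes on day 3 the members differed by little. None of the 8 was called, beside 2.42% of all genes tested, or 262. At an unadjusted p under 0.05 in limma there were 6 of 8 members and 3142 of 10823 genes. With no limit on the size of the difference, 2 members passed the adjusted p, *Mbd4* and *Tdg*, beside 15.2% of all genes. In 7 of 8 members the genotypes did not overlap on day 3, 5 higher and 2 lower in *Mct1* f/f Mb1Cre, beside 47.1% of all genes. This comparison shares its day 3 libraries with those of activation.

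*Mbd4* was higher in *Mct1* f/f Mb1Cre cells on day 3. The levels given above put its 3 libraries between 10.9 and 11.5 FPKM, all above the 8.88 and 9.30 FPKM of Mb1Cre, and the mean at 122% of control. The difference was 0.26 (95% interval 0.15 to 0.37, limma adjusted p = 0.00602), of which the whole interval lies under the 0.5 limit. Without Mb1Cre day 3 replicate 1 it was 0.23 (limma adjusted p = 0.0706). On day 0 the genotypes differed by 0.02 (−0.10 to 0.14, limma adjusted p = 0.928).

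*Tdg* was lower, with 48.9 to 50.1 FPKM against 55.0 and 56.4 FPKM and a mean at 88.9% of control. The difference was −0.17 (95% interval −0.27 to −0.06, limma adjusted p = 0.0389). Its adjusted p rose above 0.05 without any 1 of the 5 day 3 libraries, up to 0.205 without Mb1Cre day 3 replicate 2, while the difference stayed between −0.18 and −0.15. On day 0 it was −0.02 (−0.14 to 0.09, limma adjusted p = 0.909).

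The other 6 members did not pass the adjusted p. *Dnmt3b* was at 120% of control on day 3, with 0.20 (95% interval 0.03 to 0.36, limma adjusted p = 0.0986). *Uhrf1* differed by 0.12 (0.03 to 0.22, limma adjusted p = 0.0873), *Dnmt3a* by 0.11 (−0.03 to 0.24, limma adjusted p = 0.268) and *Dnmt1* by 0.10 (0.001 to 0.19, limma adjusted p = 0.167). *Tet2* differed by −0.14 (−0.27 to −0.01, limma adjusted p = 0.140) and *Tet3*, whose genotypes overlapped, by 0.03 (−0.09 to 0.15, limma adjusted p = 0.806). All of these intervals lie within 0.5 of 0. Myeloid markers summed to 15.0 and 16.8 FPKM in Mb1Cre and to 22.2 to 25.5 FPKM in *Mct1* f/f Mb1Cre libraries on day 3. Of the 7 tested, 2 were called higher, *Lyz2* (0.71, limma adjusted p = 0.00150) and *Adgre1* (0.68, limma adjusted p = 4.25e-04). The other 5 were not called, and their means in Mb1Cre and then *Mct1* f/f Mb1Cre cells went both ways. *Itgam* (1.615 and 2.357 FPKM) and *Csf1r* (0.405 and 0.693 FPKM) were higher in the latter. *S100a9* (1.595 and 0.637 FPKM), *S100a8* (0.875 and 0.537 FPKM) and *Mpo* (0.09 and 0.06 FPKM) were lower. The part of the myeloid markers in the differences of the members was not tested.

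On day 0 none of the 8 members was called between the genotypes, beside 0.277% of all genes, or 30. At an unadjusted p under 0.05 in limma there were 1 of 8 members and 1269 genes. That member was *Uhrf1*, with 14.5 and 15.9 FPKM in *Mct1* f/f Mb1Cre and 13.2 and 13.1 FPKM in Mb1Cre cells (difference 0.19, 95% interval 0.09 to 0.30, limma adjusted p = 0.184). Of the 26 S phase and proliferation genes none was called on day 0, with a median of 0.09. With no limit on size 2 passed the adjusted p, beside 0.416% of all genes, or 45. These were *Top2a* (0.31, limma adjusted p = 0.0333) and *Ccna2* (0.30, limma adjusted p = 0.0460). *Mki67* differed by 0.37 and did not pass (limma adjusted p = 0.0635). Plasma cell markers summed to 191 and 234 FPKM in these *Mct1* f/f Mb1Cre libraries and to 134 and 150.4 FPKM in Mb1Cre, with 1 of 4 called higher, the immunoglobulin joining chain *Jchain* (0.97, limma adjusted p = 0.0193). Myeloid markers summed to 1099 and 1823 FPKM against 1015 and 1207 FPKM, with 0 of 7 called. Their part in the difference of *Uhrf1* was not tested. *Slc16a1* was not called between the genotypes on day 0, so this comparison has no check of its labels. It was also not balanced for sex by *Ddx3y*, with 31.1 and 0.20 FPKM in *Mct1* f/f Mb1Cre and 0.24 and 0.02 FPKM in Mb1Cre libraries.

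The change on activation did not pass the test of a difference between genotypes in any member. None was called, beside 3.23% of all genes, or 350, and 3 members and 2745 genes had an unadjusted p under 0.05 in limma. For *Mbd4* the change in *Mct1* f/f Mb1Cre minus that in Mb1Cre cells was 0.24 (95% interval 0.08 to 0.41, limma adjusted p = 0.0703). For *Dnmt3b* it was 0.31 (0.07 to 0.55, limma adjusted p = 0.105) and for *Dnmt3a* 0.20 (0.004 to 0.40, limma adjusted p = 0.189). *Slc16a1* itself rose by 2.23 in Mb1Cre and by 1.18 in *Mct1* f/f Mb1Cre cells, a difference of −1.06 (SE 0.106, limma adjusted p = 4.24e-04).

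**Figure D4:**
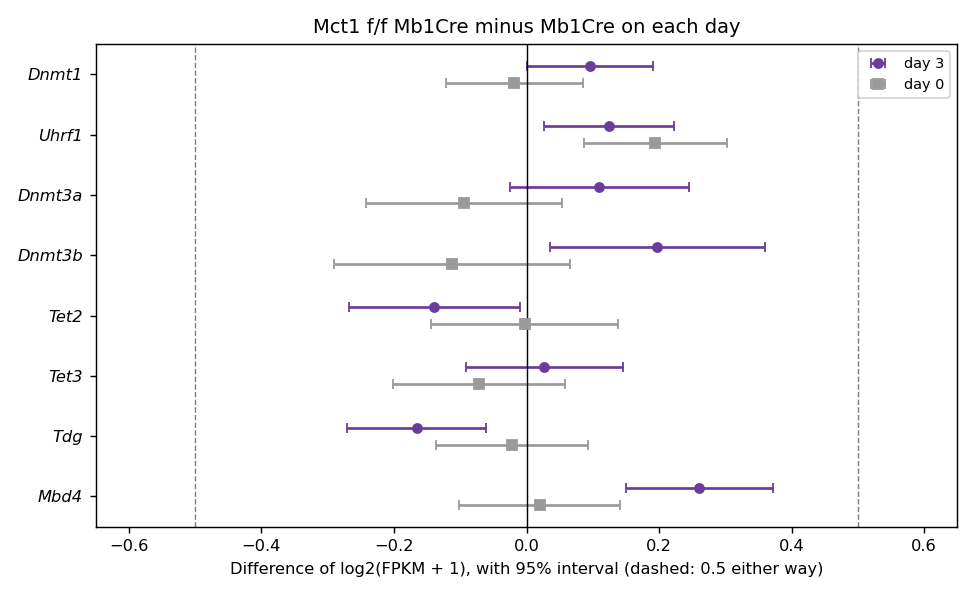
*Mct1* f/f Mb1Cre minus Mb1Cre for the 8 members tested, as a difference of log2(FPKM + 1) (x axis) with its 95% interval from limma, on day 3 (circles) and day 0 (squares). All points lie within the dashed limits of 0.5, with *Mbd4* on day 3 farthest from 0 at 0.26 and *Tdg* lowest at −0.17.

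The genes that work with the members were taken from lists written for this work. Of 20 tested partners and readers of DNA methylation, 7 rose and 6 fell in Mb1Cre cells on activation, with a median of 0.08, and 8 rose and 5 fell in *Mct1* f/f Mb1Cre cells, with a median of −0.04. These counts stand beside 24.8% higher and 33% lower of all genes tested in Mb1Cre and 23.4% and 33.2% in *Mct1* f/f Mb1Cre cells, shares that hold for the lists that follow too. *Hells*, a remodeller that opens chromatin for methylation, rose from 7.64 to 49.1 FPKM (2.54, limma adjusted p = 2.16e-11), and its partner *Cdca7* from 13.1 to 50.9 FPKM (1.88, limma adjusted p = 4.54e-10). *Gadd45g*, of a stress-induced family linked to demethylation, rose from 15.5 to 84.4 FPKM (2.38, limma adjusted p = 7.96e-10). *Cxxc5*, a CXXC zinc finger protein, fell from 53.3 to 4.32 FPKM (−3.35, limma adjusted p = 2.20e-11). The methyl-CpG binding repressor *Zbtb4* (−1.95, limma adjusted p = 1.82e-10) and *Ogt*, the O-GlcNAc transferase that binds TET proteins (−0.80, limma adjusted p = 2.97e-08), also fell. No gene of this list was called between the genotypes on day 3.

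Base excision repair, which fills the gaps left by *Tdg* and *Mbd4*, had 6 genes higher and 2 lower of 19 in each genotype, with medians of 0.27 and 0.24, beside 24.8% higher and 33% lower of all genes in Mb1Cre cells. *Lig1*, the replicative DNA ligase (2.54, limma adjusted p = 3.72e-11), the flap endonuclease *Fen1* (1.94, limma adjusted p = 4.82e-11) and the uracil glycosylase *Ung* (1.75, limma adjusted p = 1.48e-09) rose most in Mb1Cre cells. *Smug1*, another uracil glycosylase, fell (−1.15, limma adjusted p = 5.84e-08). Between the genotypes on day 3, 1 of 19 was called, beside 2.42% of all genes, the oxidised-base glycosylase *Neil1*, with 16.5 FPKM in Mb1Cre and 9.87 FPKM in *Mct1* f/f Mb1Cre cells (−0.68, SE 0.0808, limma adjusted p = 3.54e-04).

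Most genes of methyl donor supply, the folate and methionine cycles that feed S-adenosylmethionine, rose. In Mb1Cre cells 18 of 22 genes were higher and 1 lower, and in *Mct1* f/f Mb1Cre cells 17 higher and 2 lower, with medians of 1.45 and 1.49. *Psat1*, an enzyme of serine synthesis, rose from 15.4 to 149.6 FPKM (3.20, limma adjusted p = 3.51e-12), the amino acid transporter *Slc7a5* by 3.01 (limma adjusted p = 2.16e-11) and mitochondrial *Mthfd2* by 2.95 (limma adjusted p = 3.55e-12). *Ahcyl2* was the gene called lower in Mb1Cre cells, by 0.79 (limma adjusted p = 2.21e-07). The 3 not called there were of the methionine cycle. They were *Mat2a* (0.01, limma adjusted p = 0.906), *Mtr* (0.01, limma adjusted p = 0.884) and *Mat2b* (−0.46, limma adjusted p = 1.48e-05). In *Mct1* f/f Mb1Cre cells *Mat2b* was called lower (−0.50, limma adjusted p = 2.82e-06). On day 3, *Tyms*, thymidylate synthase, was called lower in *Mct1* f/f Mb1Cre cells, at 20.7 FPKM against 31.3 FPKM (−0.57, SE 0.0573, limma adjusted p = 1.31e-04).

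Enzymes around 2-oxoglutarate, the cosubstrate of the TET proteins, and its competitors held 9 genes that rose and 2 that fell of 20 in Mb1Cre cells, beside 24.8% and 33% of all genes. In *Mct1* f/f Mb1Cre cells 10 rose and 2 fell, and the medians were 0.37 and 0.46. The transaminases *Gpt2* (2.00, limma adjusted p = 1.95e-09), *Got1* (1.65, limma adjusted p = 7.26e-11) and *Got2* (1.59, limma adjusted p = 2.92e-11) rose most. *D2hgdh*, which clears 2-hydroxyglutarate (−1.04, limma adjusted p = 3.29e-08), and cytosolic *Idh1* (−0.61, limma adjusted p = 2.30e-04) fell. None was called between the genotypes on day 3.

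S phase and proliferation genes give the scale of the day 3 culture. Of 26 genes, 24 rose in each genotype and 1 fell in Mb1Cre cells, with medians of 2.08 and 2.05, beside the 2.79 of *Uhrf1* and the 1.25 of *Dnmt1*. *Ccnb1* rose by 3.46 (limma adjusted p = 1.22e-11), *Top2a* by 3.16 (limma adjusted p = 3.06e-12) and *Rrm2* by 3.01 (limma adjusted p = 1.50e-12), and *E2f2* fell by 0.86 (limma adjusted p = 7.65e-07). On day 3 the median of this list between the genotypes was −0.01 and no gene was called. *Uhrf1* and *Dnmt1* are not in the list.

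**Figure D5:**
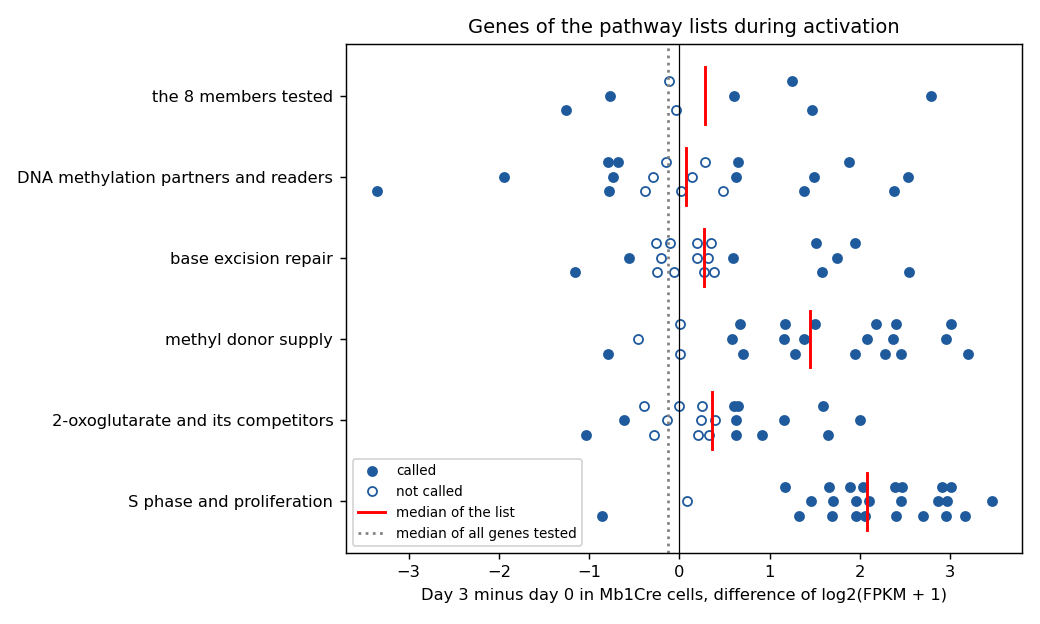
Day 3 minus day 0 in Mb1Cre cells, as a difference of log2(FPKM + 1) (x axis), for each tested gene of the members and of 5 lists (rows), filled where called and open where not, with the median of each list in red. The medians are 2.08 for S phase and proliferation and 1.45 for methyl donor supply, against 0.28 for the members and a dotted line at −0.12 for all genes tested.

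Germline genes that DNA methylation is known to silence in somatic cells were near the floor. Of 20 listed, 15 were in the table, 13 of these had a mean under 1 FPKM, and no value of those 13 was over 1.14 FPKM. Low levels were common, as 10823 of all 17596 genes reached a mean of 1 FPKM. The part of DNA methylation in these low levels was not tested. *Tdrkh* and *Zcwpw1* were tested. *Zcwpw1* fell by 0.73 in *Mct1* f/f Mb1Cre cells on activation (limma adjusted p = 9.35e-06) and had −0.16 in Mb1Cre cells (limma adjusted p = 0.131), and the difference between these changes was called (−0.57, limma adjusted p = 0.0212). Neither *Tdrkh* nor *Zcwpw1* was called between the genotypes on day 3 or day 0.

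For each tested member, the pair of genes with the most similar profile was found by the root mean square difference of centred log2(FPKM + 1) over the 9 libraries. They were *Cpox* and *Samsn1* for *Uhrf1* (0.0590 and 0.0622), *Naa25* and *Eif4a1* for *Dnmt1* (0.0286 and 0.0300), *Rad18* and *Snd1* for *Tdg* (0.0419 and 0.0428), and *Nat10* and *Agfg1* for *Dnmt3a* (0.0254 and 0.0259). The falling members were nearest to *Add1* and *Man2a2* for *Tet3* (0.0281 and 0.0286) and to *Rapgef2* and *Tvp23a* for *Mbd4* (0.0307 and 0.0386). *Dnmt3b* was nearest to *Dpp9* and *Arpc1b* (0.0384 and 0.0459) and *Tet2* to *Wrap73* and *Cul1* (0.0269 and 0.0363). The members' own profiles had a root mean square between 0.0840 for *Tet2* and 1.38 for *Uhrf1*, so likeness to *Tet2* and *Dnmt3b* rests on small changes. *Cpox*, an enzyme of heme synthesis, went from 13.1 to 89.5 FPKM in Mb1Cre cells, next to the 13.1 and 96.8 FPKM of *Uhrf1*.

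On GRCm38, GENCODE M21 places the genes at chr9:20907209-20959888 for *Dnmt1*, chr17:56303321-56323486 for *Uhrf1*, chr12:3806007-3914443 for *Dnmt3a* and chr2:153649450-153687730 for *Dnmt3b*. The Tet genes lie at chr10:62804570-62908996 for *Tet1*, chr3:133463679-133545139 for *Tet2* and chr6:83362373-83459084 for *Tet3*, and the glycosylases at chr10:82629828-82650799 for *Tdg* and chr6:115840697-115853371 for *Mbd4*. Each has between 3 and 13 protein-coding transcripts, which the level per gene does not separate. Genes on the opposite strand overlap *Dnmt3a*, *Dnmt3b*, *Tet2*, *Tet3*, *Tdg* and *Mbd4*, and whether strand was used in counting is not given in the sources used here, so reads of these pairs cannot be told apart. Over *Tdg* this partner is *Glt8d2*, which had a mean of at most 0.095 FPKM in any group.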

How the data were processed

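RNA sequencing was performed on primary splenic B cells of 2 genotypes on days 0 and 3, and 9 libraries were analysed. The authors deposited a single table of FPKM values, with a row for each of 17596 genes and 2 decimals. The submitters' processing notes name Bowtie2 and GRCm38/mm10, and the sequencing institute did the assembly of the data. Versions, annotation and quantifier are not given in the sources used here. Each column was matched to its sample by the title, and 0 columns were left without a sample. FPKM divides by gene length and mapped fragments, so depth is unknown and no counting interval was given.

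Values were taken as log2(FPKM + 1), without rescaling. The 10823 genes whose mean over the libraries reached 1 FPKM, among them 8 of the 9 members, were fitted in R 4.3.3 with limma 3.58.1. The fit held a mean per group, shared the spread over the 4 groups with a trend on level (empirical Bayes), and p-values were adjusted by Benjamini-Hochberg over these genes. A call needed an adjusted p below 0.05 together with a log2 difference over 0.5 in size. The comparisons were day 3 against day 0 within a genotype, the genotypes within a day, and the difference between both activation changes. Intervals are 95%, and tests were two-sided. The procedure was tested on simulated data.

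All members are named, with up to 3 called genes in each direction from each pathway list on activation of Mb1Cre cells, every list gene called between the genotypes on day 3, and for each member the pair of genes of most similar profile. A gene that this rule picks is not reported here. *Ddx3y*, *Lyz2*, *Adgre1*, *Zcwpw1*, *Ccna2*, *Mki67* and *Jchain* were chosen for naming with their values in view. So were *Mat2a*, *Mat2b*, *Mtr*, *Xbp1*, *Prdm1*, *Sdc1*, *Itgam*, *Csf1r*, *S100a8*, *S100a9* and *Mpo*. The members and lists were chosen with earlier results of these data known. Alternatives changed the pseudocount (0.1 or 5), the filter (none, or 5 FPKM), the scaling (equal totals, median of ratios, quantiles), the fit (compared groups alone, replicate block, without trend), the log2 limit (1, or none) and the libraries (leaving out 1 at a time). Pandas 2.3.3 and matplotlib 3.10.9 were used in Python 3.11.15.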

Additional observations from a re-analysis of the deposited data

Results flagged for a closer look

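Of all genes tested, 350 were called for a different change on activation in the 2 genotypes. Those among the named genes are given here, together with *Dnmt3b*, which was not called. *Slc16a1*, the targeted gene, rose by 2.23 in Mb1Cre and by 1.18 in *Mct1* f/f Mb1Cre cells on the log2(FPKM + 1) scale, and the difference of −1.06 passed the test of the difference in limma (adjusted p = 4.24e-04).

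The change in *Mct1* f/f Mb1Cre minus that in Mb1Cre cells also passed in limma for *Tyms* (−0.78, adjusted p = 6.37e-04), *Neil1* (−0.59, adjusted p = 0.0137) and *Zcwpw1* (−0.57, adjusted p = 0.0212). *Tyms* rose by 2.45 in Mb1Cre and by 1.67 in *Mct1* f/f Mb1Cre cells, and *Neil1* differed by 0.19 and −0.40 between the days, neither of them called. The myeloid genes *Lyz2* (0.57, adjusted p = 0.0466) and *Adgre1* (0.51, adjusted p = 0.0289) passed as well, with changes of −5.81 and −3.93 in Mb1Cre and of −5.23 and −3.42 in *Mct1* f/f Mb1Cre cells. *Jchain*, a plasma cell marker, rose by 0.79 in Mb1Cre and fell by 0.65 in *Mct1* f/f Mb1Cre cells, and the difference was −1.44 (limma adjusted p = 0.00246).

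*Dnmt3b* went in opposite directions. Both Mb1Cre libraries of day 3 (2.94 and 2.75 FPKM) lay below both of day 0 (3.20 and 3.12 FPKM), while the 3 *Mct1* f/f Mb1Cre libraries of day 3 (3.21, 3.65 and 3.37 FPKM) lay above both of day 0 (2.75 and 2.95 FPKM). The difference of 0.31 had an unadjusted p of 0.0167 and did not pass after adjustment in limma (adjusted p = 0.105, range over the alternatives 0.0593 to 0.262). In Mb1Cre cells the fall turned to a rise under 2 of the scalings.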

How the results depend on the processing

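The members' calls on activation, 6 in each genotype, kept a count within 1.5 times under every alternative, and so did the 0 calls between genotypes on day 0 and in the difference between the activation changes. With a log2 limit of 1, *Dnmt3a* (0.60 in Mb1Cre, 0.81 in *Mct1* f/f Mb1Cre cells) and *Mbd4* (−0.77 and −0.53) lost their calls in both genotypes. On day 3 the count of members called between genotypes was 0, and 2 with no log2 limit. Leaving out 1 library moved no count of members. Over all genes, the counts for the genotypes on day 3 were 262 as reported, 421 with a pseudocount of 0.1, 120 with one of 5, 54 with a log2 limit of 1 and 1650 with none. For the difference between the activation changes they were 350 as reported, 156 with a pseudocount of 5, 56 with a limit of 1 and 1020 with none. For the genotypes on day 0 they were 30 as reported, 13 without a filter, 2 with only the compared groups, 16 with a limit of 1, and 22 to 101 without 1 library, with 101 without Mb1Cre day 0 replicate 2 and 67 without *Mct1* f/f Mb1Cre day 0 replicate 2. For activation they were 6258 and 3191 in Mb1Cre, and 6120 and 2994 in *Mct1* f/f Mb1Cre cells, at limits of 0.5 and 1, and 9258 in the latter with no limit.

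These directions turned. On activation of Mb1Cre cells *Dnmt3b* went from −0.11 to 0.0458 (median-of-ratios scaling) and 0.27 (quantile normalization, adjusted p = 0.00858), and *Tet2* from −0.03 to 0.16 and 0.17. In *Mct1* f/f Mb1Cre cells *Tet2* went from −0.17 (adjusted p = 0.0176) to 0.0242 and 0.0699, and *Dnmt3b* kept its direction but was called under quantile normalization (0.20 as reported, 0.63). With a pseudocount of 5 the calls of *Dnmt3a* in Mb1Cre (0.48) and *Mbd4* in *Mct1* f/f Mb1Cre cells (−0.41) were lost. Between the genotypes on day 0 *Tet2* went from −0.00302 to 0.00774 under median-of-ratios scaling, and without 1 library *Tet2* ranged from −0.0576 to 0.0516, *Dnmt1* from −0.0593 to 0.0226, *Tdg* from −0.0745 to 0.0315 and *Slc16a1* from −0.127 to 0.0244. The causes were not tested. Over all alternatives, the adjusted p for the genotypes on day 3 ran from 0.00393 to 0.0706 for *Mbd4* and from 0.0180 to 0.205 for *Tdg*, without a change of direction.

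Whether replicate numbers pair the libraries is not given by the labels. The deviations of same-numbered libraries correlated between −0.122 and 0.0867. This cannot decide the question, since in a group of 2 libraries the deviations mirror each other. With the replicate number as a block, 6, 6, 0, 0 and 0 members were called in the 5 comparisons, as without it, and 6261, 6103, 262, 27 and 274 genes. With the Mb1Cre day 0 numbers crossed, chosen after seeing the data, the counts of genes were 6264, 6103, 274, 30 and 295.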
